A study of Mus musculus with 12 samples.

Results

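The 43 genes described here encode the sarcomere of skeletal muscle, its calcium handling and its energy supply, and include the genes by which fast and slow muscle fibers are told apart. They were taken by symbol from a count table of 47069 genes, in which each of the 43 symbols occurred once. The RNA came from tibia shafts of 12 male mice aged 8 weeks, flushed of marrow, minced and homogenized, with n = 4 mice in each of 3 groups. The question was how far muscle that stayed on the bone contributed to each library, whether its fast and slow genes went together, and whether any of these genes differed between genotypes.

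WT mice carried normal *Col1a1* and *Sost* alleles. Jrt;Sost-het mice carried the Col1a1Jrt/+ genotype, a dominant splice site variant that gives severe osteogenesis imperfecta, and Jrt;Sost-ko mice carried Col1a1Jrt/+ Sost-/-, so that both Jrt groups share the collagen variant. The labels give Jrt;Sost-het mice by the *Col1a1* genotype alone, and their heterozygous *Sost* deletion was taken from the study's methods. All mice were of mixed FVB and C57BL6 background. The chromosome that carries both the Jrt variant and the *Sost* deletion goes back to a recombination in a founder mouse, and the Jrt groups came from crosses within that colony. WT mice came from a parallel colony, and colony effects cannot be told apart from genotype wherever WT is compared. Any 2 of the 3 comparisons share the mice of a group. Mice are numbered within a group only to name them.

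In the sarcomere, myosin thick filaments pull on actin thin filaments, and troponin and tropomyosin on the thin filament open or close the myosin sites as calcium rises or falls. Muscle fibers differ in the myosin heavy chain they use: *Myh4*, *Myh1* and *Myh2* encode the fast chains of IIB, IIX and IIA fibers, and *Myh7* encodes the slow chain. Troponins and light chains exist in matching fast and slow forms, and limb muscles around the mouse tibia are mostly fast.

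Reads counted on genes ranged from 24366061 to 44418863 per mouse. *Sost* had 1030 to 2764 counts in WT mice, 648 to 1871 in Jrt;Sost-het mice and 10 to 43 in Jrt;Sost-ko mice. The first 2 ranges overlapped, and the Jrt;Sost-ko mice lay below both. Osteoblast marker genes (7 genes, *Col1a1* and *Bglap* among them) summed to between 22544 and 69086 CPM (library-size-normalized read counts, scaled by TMM over all 12 libraries). Of 6 epidermal genes such as *Krt10* and *Lor*, the sum was 116 CPM in WT 3 and 534 CPM in WT 4 and at most 2.65 CPM in the other mice.

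The share of counts that fell on the 43 genes varied widely within every group, and only WT held libraries near both ends. This share was 0.469%, 0.121%, 1.96% and 4.43% in WT mice 1 to 4. It was 0.448%, 1.01%, 1.57% and 4.21% in Jrt;Sost-het mice 1 to 4. It was 1.5003%, 0.381%, 1.89% and 0.0856% in Jrt;Sost-ko mice 1 to 4. The mice Jrt;Sost-ko 4 and WT 2 therefore held the least RNA of these genes, and WT 4 and Jrt;Sost-het 4 the most. Fewer muscle fibers on a bone and less RNA per fiber cannot be told apart in these bulk samples.

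A list of 30 other skeletal muscle genes that shares no gene with the 43 showed the same order at its ends, with a sum of 135 CPM in Jrt;Sost-ko 4, 160 CPM in WT 2, 3685 CPM in Jrt;Sost-het 4 and 3779 CPM in WT 4. Markers of most other cell types spanned narrower ranges. The smooth muscle list (8 genes) spanned 236 to 415 CPM and the tendon list (5 genes) 69.9 to 421 CPM, and the 2 lowest libraries of the tendon list were WT 2 (69.9 CPM) and Jrt;Sost-ko 4 (101.1 CPM), the same 2 that were lowest in muscle genes. In the list of 8 heart genes the sum lay between 14.2 and 33.3 CPM. The genes of that list differed: *Myl4* had 382 to 1011 counts (11.4 to 27.1 CPM) and *Nppa* had 0 counts in every mouse. The part of other cell types in the results below was not tested.

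**Figure D1:**
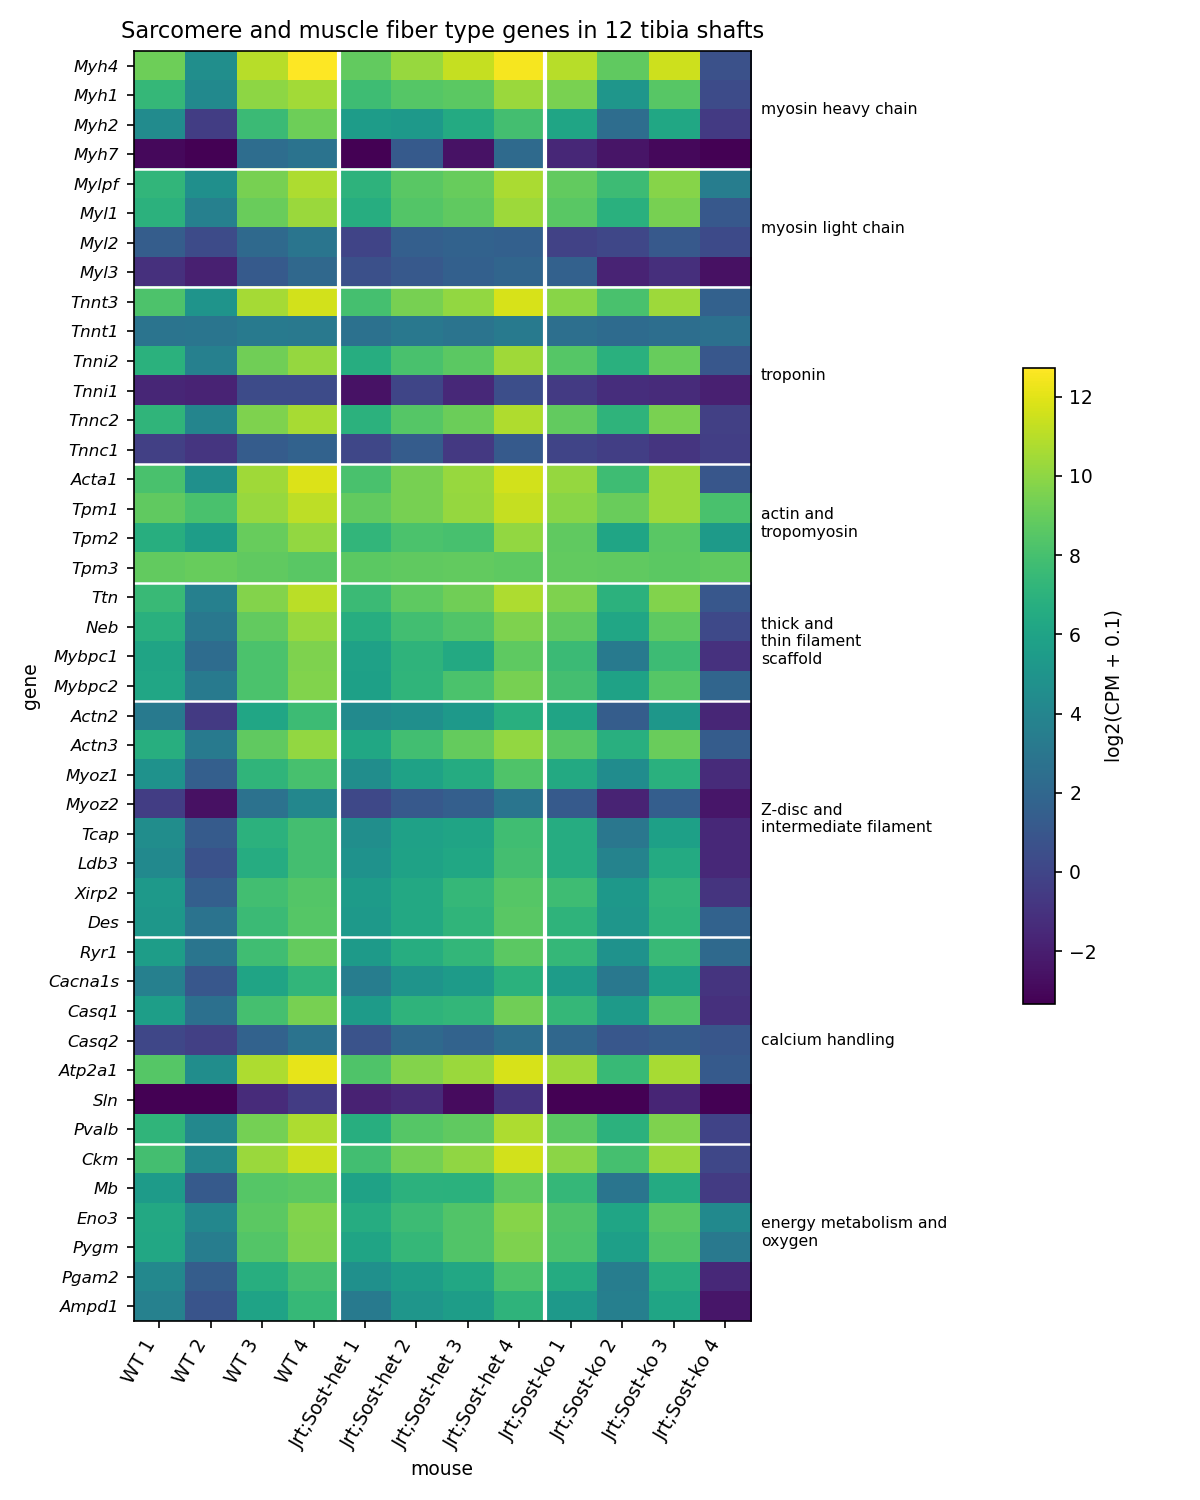
Level of each of the 43 genes (rows, grouped by role) in each of the 12 mice (columns, in 3 groups of 4 separated by white lines), as log2(CPM + 0.1). The columns of WT 2 and Jrt;Sost-ko 4 are dark for most genes, whereas *Tpm3* and *Tnnt1* have nearly the same color in all 12 columns.

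The gene sequences bear on how far reads can tell these genes apart. Genes of the family lie side by side in GRCm38: *Myh2* (ENSMUSG00000033196, chr11:67171027-67197517), *Myh1* (ENSMUSG00000056328, chr11:67200052-67224575) and *Myh4* (ENSMUSG00000057003, chr11:67238029-67260446) are all on the plus strand, and *Myh7* (ENSMUSG00000053093, chr14:54970684-54994626) is on the minus strand of another chromosome. The longest coding run that *Myh4* shares base for base with *Myh1* is 161 bases long (coding positions 3241 to 3401 of *Myh4*), and the longest it shares with *Myh7* is 56 bases long (coding positions 1474 to 1529 of *Myh4*). Both runs are printed to show how closely fast chains resemble each other and how much less they resemble the slow chain.
Myh4 and Myh1: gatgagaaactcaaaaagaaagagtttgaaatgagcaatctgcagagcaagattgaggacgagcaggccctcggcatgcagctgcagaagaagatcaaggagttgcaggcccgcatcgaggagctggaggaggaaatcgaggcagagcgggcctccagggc
Myh4 and Myh7: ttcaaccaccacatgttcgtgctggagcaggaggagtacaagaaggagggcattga

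Of all windows of 100 bases, 3.85% of the *Myh4* transcript, 9.73% of *Myh1*, 9.17% of *Myh2* and 11.4% of *Myh7* recur unchanged in another of 10 sarcomeric myosin genes. For *Myh7* all 687 such windows recur in *Myh6*, the alpha chain of the heart. Alignments to more than 1 place were not counted, and how many of them fell on these genes is not known. Exons of 18 of the 43 genes also overlap exons of a gene on the opposite strand, among them *Myh1* (*Myhas*), *Myh7* (*Mhrt*), *Myl3* (*Pth1r*) and *Tnnc2* (*Ube2c*), and the strand setting of the counting is not given in the sources used here.

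RefSeq (GRCm38.p6) gave the 250 bases before the start of 35 of the 43 genes. The most common fast chain, its neighbor and 2 slow genes are printed here, as examples from both ends of the levels that follow. Capitals mark E-boxes (CANNTG, 6 bases, the site of MyoD family factors) and MEF2 sites (10 bases, the site of MEF2 factors), each searched on both strands, as was TATAAA. The windows are chr11:67237562-67237811 (plus strand) for *Myh4*, chr11:67199852-67200101 (plus strand) for *Myh1*, chr14:54994627-54994876 (minus strand) for *Myh7* and chr1:135799171-135799420 (plus strand) for *Tnni1*. For *Myh4* the RefSeq start lies before the GENCODE start given above, and the *Tnni1* window lies inside the GENCODE gene (chr1:135779434-135810989).
Myh4: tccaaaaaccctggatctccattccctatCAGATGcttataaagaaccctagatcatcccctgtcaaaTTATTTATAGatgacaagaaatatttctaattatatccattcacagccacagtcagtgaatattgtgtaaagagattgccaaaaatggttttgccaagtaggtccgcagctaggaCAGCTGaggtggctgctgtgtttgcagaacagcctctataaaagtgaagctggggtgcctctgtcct
Myh1: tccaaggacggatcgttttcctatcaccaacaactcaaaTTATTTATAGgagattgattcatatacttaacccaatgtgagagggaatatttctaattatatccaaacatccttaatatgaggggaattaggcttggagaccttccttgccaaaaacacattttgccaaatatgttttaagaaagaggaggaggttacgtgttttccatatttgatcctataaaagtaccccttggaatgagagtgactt
Myh7: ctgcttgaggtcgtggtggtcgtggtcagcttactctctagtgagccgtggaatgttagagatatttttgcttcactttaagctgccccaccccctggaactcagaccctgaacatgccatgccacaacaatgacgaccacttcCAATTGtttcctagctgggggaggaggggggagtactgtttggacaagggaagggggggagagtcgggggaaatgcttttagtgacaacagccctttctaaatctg
Tnni1: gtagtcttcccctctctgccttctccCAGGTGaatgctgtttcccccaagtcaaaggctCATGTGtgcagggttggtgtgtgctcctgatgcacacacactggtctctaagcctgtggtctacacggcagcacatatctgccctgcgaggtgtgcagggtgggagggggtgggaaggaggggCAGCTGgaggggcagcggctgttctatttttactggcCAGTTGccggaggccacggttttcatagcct

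The window of *Myh4* held a MEF2 site 182 bases before the start and 2 E-boxes. The window of *Myh1* held the same 10 letters at 211 bases before the start and no E-box. Downstream of that site the 2 windows share a run of 20 bases, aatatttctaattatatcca, whereas the longest run that *Myh4* shares with *Myh7* is 8 bases. *Myh7* held 1 E-box, *Tnni1* held 4, and neither held a MEF2 site. Over the 35 genes, 8 windows (22.9%) held a MEF2 site against 3.01% of the windows of 27025 genes, and the 8 were *Myh4*, *Myh1*, *Ttn*, *Myoz2*, *Xirp2*, *Casq2*, *Pvalb* and *Pgam2*. E-boxes occurred in 30 windows (85.7%) against 66.0%, and TATAAA in 5 (14.3%) against 12.97%. These are matches of letters in a short window.

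The fast chain *Myh4* had the most counts of the 4 sarcomeric myosin heavy chains among the 43 genes in every mouse. Its level was 571, 23.95, 2055 and 6706 CPM in WT mice 1 to 4. It was 458, 1199, 2473 and 5852 CPM in Jrt;Sost-het mice 1 to 4, and 2052, 443, 2933 and 1.47 CPM in Jrt;Sost-ko mice 1 to 4. The 3 groups overlapped throughout, and the means of 2339 ± 3035, 2495 ± 2388 and 1357 ± 1371 CPM (SD, n = 4 each) had SDs about as large as themselves.

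*Myh1* was at 163, 19.7, 1018 and 1464 CPM in WT mice 1 to 4, at 211, 355, 402 and 1281 CPM in Jrt;Sost-het mice 1 to 4, and at 727, 34.2, 381 and 1.17 CPM in Jrt;Sost-ko mice 1 to 4. *Myh2* was at 21.5, 0.649, 196 and 589 CPM in WT mice 1 to 4, at 46.5, 41.2, 87.9 and 243 CPM in Jrt;Sost-het mice 1 to 4, and at 68.4, 5.18, 74.4 and 0.554 CPM in Jrt;Sost-ko mice 1 to 4. Both genes were lowest in Jrt;Sost-ko 4 and highest in WT 4. The slow chain *Myh7* had 1, 0, 233 and 248 counts in WT mice 1 to 4, 0, 67, 2 and 108 counts in Jrt;Sost-het mice 1 to 4, and 7, 3, 1 and 0 counts in Jrt;Sost-ko mice 1 to 4. Only 4 of the 12 libraries held more than 7 counts of *Myh7*, and none of those was from a Jrt;Sost-ko mouse.

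Per kb of exon, *Myh4* made up between 48.2% and 92.3% of the counts of the 4 chains, *Myh1* between 6.75% and 43.2%, *Myh2* between 0.909% and 15.3%, and *Myh7* at most 0.115%. The *Myh4* share had a mean of 68.7% ± 10.7 for WT, of 76.7% ± 8.06 for Jrt;Sost-het and of 75.3% ± 19.8 for Jrt;Sost-ko (SD, n = 4 each), and the groups overlapped. The 2 lowest shares, 48.2% in Jrt;Sost-ko 4 and 55.5% in WT 2, came from the libraries with the fewest myosin counts, 98 and 1296. In Jrt;Sost-ko 4, where 45 of 98 counts (45.9%) were *Myh4*, the 95% Wilson interval was 36.4% to 55.8%. The 54.1% of WT 2 lay inside that interval, and the 64.0% of the lowest Jrt;Sost-het mouse lay above it. Such an interval leaves out the spread between mice and cannot show a difference between them. Where *Myh7* had 0 counts, the upper 95% Wilson limit of its share of the counts was 0.296% (WT 2), 0.0203% (mouse 1 of Jrt;Sost-het) and 3.77% (mouse 4 of Jrt;Sost-ko), or, with a limit of 3 counts, 0.231%, 0.0159% and 3.06%. Intervals and limits cover counting error only.

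The ratio of *Myh4* to *Myh1* per kb also varied within groups, from 1.29 in WT 2 to 4.84 in WT 4, from 2.29 in Jrt;Sost-het 1 to 6.49 in Jrt;Sost-het 3, and from 1.32 in Jrt;Sost-ko 4 to 13.7 in Jrt;Sost-ko 2. Jrt;Sost-ko 2 and Jrt;Sost-ko 3, at 13.7 and 8.14, lay above all other mice, and Jrt;Sost-ko 1 and Jrt;Sost-ko 4 lay among them.

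**Figure D2:**
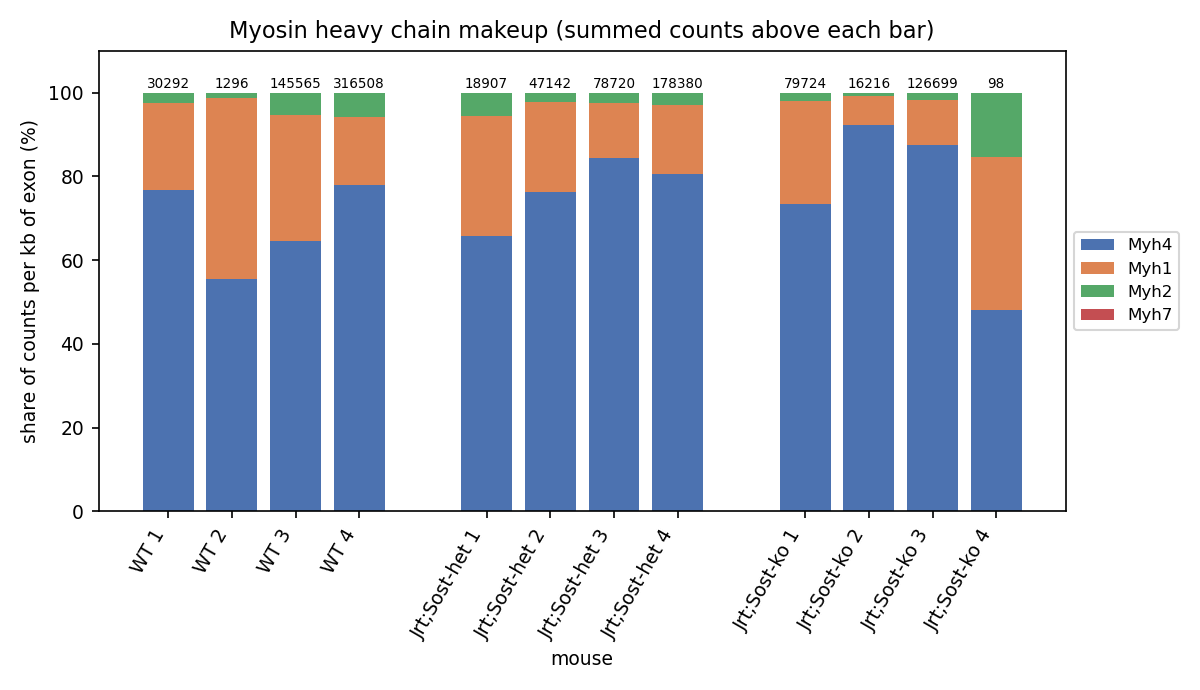
Share of *Myh4*, *Myh1*, *Myh2* and *Myh7* in the counts per kb of exon of the 4 myosin heavy chains (%), 1 bar per mouse, with the summed counts of the 4 genes above each bar. *Myh4* is the largest share in all 12 mice, *Myh7* is too small to see, and Jrt;Sost-ko 4 rests on 98 counts.

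Light chains sit on the myosin neck. The fast pair *Mylpf* (regulatory) and *Myl1* (essential) also had overlapping groups and wide ranges. *Mylpf* was at 149.7, 24.9, 681 and 1686 CPM in WT mice 1 to 4, at 132, 393, 502 and 1655 CPM in Jrt;Sost-het mice 1 to 4, and at 465, 202, 887 and 11.2 CPM in Jrt;Sost-ko mice 1 to 4. *Myl1* was at 125, 12.3, 538 and 1275 CPM in WT mice 1 to 4, at 100.5, 344, 437 and 1320.2 CPM in Jrt;Sost-het mice 1 to 4, and at 386, 116, 674 and 2.02 CPM in Jrt;Sost-ko mice 1 to 4. Both were lowest in Jrt;Sost-ko 4 and next lowest in WT 2, and highest in WT 4 (*Mylpf*) or Jrt;Sost-het 4 (*Myl1*).

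The slow regulatory chain *Myl2*, which the ventricle also uses, was at 2.57, 1.16, 4.43 and 7.53 CPM in WT mice 1 to 4, at 0.869, 2.81, 3.12 and 2.98 CPM in Jrt;Sost-het mice 1 to 4, and at 0.786, 0.952, 2.17 and 1.11 CPM in Jrt;Sost-ko mice 1 to 4. The slow essential chain *Myl3* was at 0.374, 0.171, 2.25 and 4.15 CPM in WT mice 1 to 4, at 1.44, 2.17, 2.90 and 3.72 CPM in Jrt;Sost-het mice 1 to 4, and at 3.11, 0.208, 0.348 and 0.0652 CPM in Jrt;Sost-ko mice 1 to 4. For *Myl3*, 3 of 4 Jrt;Sost-ko mice lay below all Jrt;Sost-het mice, and the remaining one was higher than 3 of them.

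Troponin T ties the troponin complex to tropomyosin. Fast *Tnnt3* was at 299, 31.6, 1468 and 3086 CPM in WT mice 1 to 4, at 254, 696, 1093 and 3405 CPM in Jrt;Sost-het mice 1 to 4, and at 942, 272, 1306 and 3.07 CPM in Jrt;Sost-ko mice 1 to 4. Slow *Tnnt1* was at 6.99, 7.48, 9.56 and 8.86 CPM in WT mice 1 to 4, at 6.16, 8.64, 6.96 and 9.35 CPM in Jrt;Sost-het mice 1 to 4, and at 5.79, 4.82, 5.43 and 6.001 CPM in Jrt;Sost-ko mice 1 to 4. *Tnnt3* spanned 1111-fold over the mice and *Tnnt1* 1.98-fold. In the 2 libraries with the least muscle RNA, *Tnnt1* had 219 counts (WT 2) and 184 counts (Jrt;Sost-ko 4), and its CPM there lay within the WT range and at the top of the Jrt;Sost-ko range. All 4 Jrt;Sost-ko mice lay below all other 8 mice for *Tnnt1*.

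Troponin I is the inhibitory subunit. Fast *Tnni2* was at 119, 12.4, 594 and 1131 CPM in WT mice 1 to 4, at 100.03, 279.9, 409 and 1359 CPM in Jrt;Sost-het mice 1 to 4, and at 351, 117, 514 and 1.96 CPM in Jrt;Sost-ko mice 1 to 4. Slow *Tnni1* had 9, 6, 52 and 42 counts in WT mice 1 to 4, 2, 27, 7 and 32 counts in Jrt;Sost-het mice 1 to 4, and 16, 11, 11 and 5 counts in Jrt;Sost-ko mice 1 to 4. Of the calcium-binding subunits, fast *Tnnc2* ranged from 0.717 to 1807 CPM and slow *Tnnc1*, also used by the heart, from 0.444 to 3.18 CPM.

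Per kb of exon, the fast form stood above the slow form in 12 of 12 mice for *Tnni2* over *Tnni1*, *Tnnc2* over *Tnnc1*, *Mylpf* over *Myl2* and *Myl1* over *Myl3*. For *Tnnt3* over *Tnnt1* and for *Casq1* over *Casq2*, the fast and the mainly slow and cardiac calsequestrin of the calcium store, it was higher in 11 of 12 mice. The exception was Jrt;Sost-ko 4 in both, with ratios of 0.711 and 0.266, where the highest ratios were 507 (Jrt;Sost-het 4) and 179.6 (Jrt;Sost-ko 3). The lowest ratio of each of these 6 pairs was in Jrt;Sost-ko 4.

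Summed over genes, the fast set (*Myh4*, *Myh1*, *Tnnt3* and *Tnni2*) spanned 7.66 CPM in Jrt;Sost-ko 4 to 12386 CPM in WT 4, a 1616-fold range. The slow set (*Myh7*, *Tnnt1*, *Tnni1*, *Myl2* and *Myl3*) spanned 6.39 CPM in Jrt;Sost-ko 2 to 28.6 CPM in WT 4, a 4.47-fold range, and *Tnnt1* alone made up 31.0% to 83.0% of its counts. Counts per kb of the fast set over those of the slow set, on the log2 scale, were 6.36, 3.10, 7.72 and 8.52 in WT mice 1 to 4. They were 6.41, 6.99, 7.84 and 8.96 in Jrt;Sost-het mice 1 to 4, and 8.08, 6.84, 8.81 and 0.12 in Jrt;Sost-ko mice 1 to 4.

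This log2 ratio had a mean of 6.42 ± 2.39 for WT, of 7.55 ± 1.11 for Jrt;Sost-het and of 5.96 ± 3.98 for Jrt;Sost-ko (SD, n = 4 each). Jrt;Sost-ko minus Jrt;Sost-het gave a difference of -1.59 with all mice and 0.36 without Jrt;Sost-ko 4, where fast and slow genes had 235 and 225 counts. Between Jrt;Sost-het and WT it was 1.13 with all mice and 0.02 without WT 2. Between Jrt;Sost-ko and WT it was -0.46 with all mice, 1.49 without Jrt;Sost-ko 4, -1.57 without WT 2, 0.24 without WT 4 and 0.38 without both low libraries together. Each difference was smaller than the larger SD of its groups, and leaving out single mice turned the direction of both differences that involve Jrt;Sost-ko. *Tnnt1*, with a 1.98-fold range over the mice, made up 81.8% of the slow counts in Jrt;Sost-ko 4 and 83.0% in WT 2. Those mice had the lowest ratios. Another mix of fibers and a lower level of fast genes over steady *Tnnt1* cannot be told apart there. As a score over chosen genes the ratio was given no test.

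**Figure D3:**
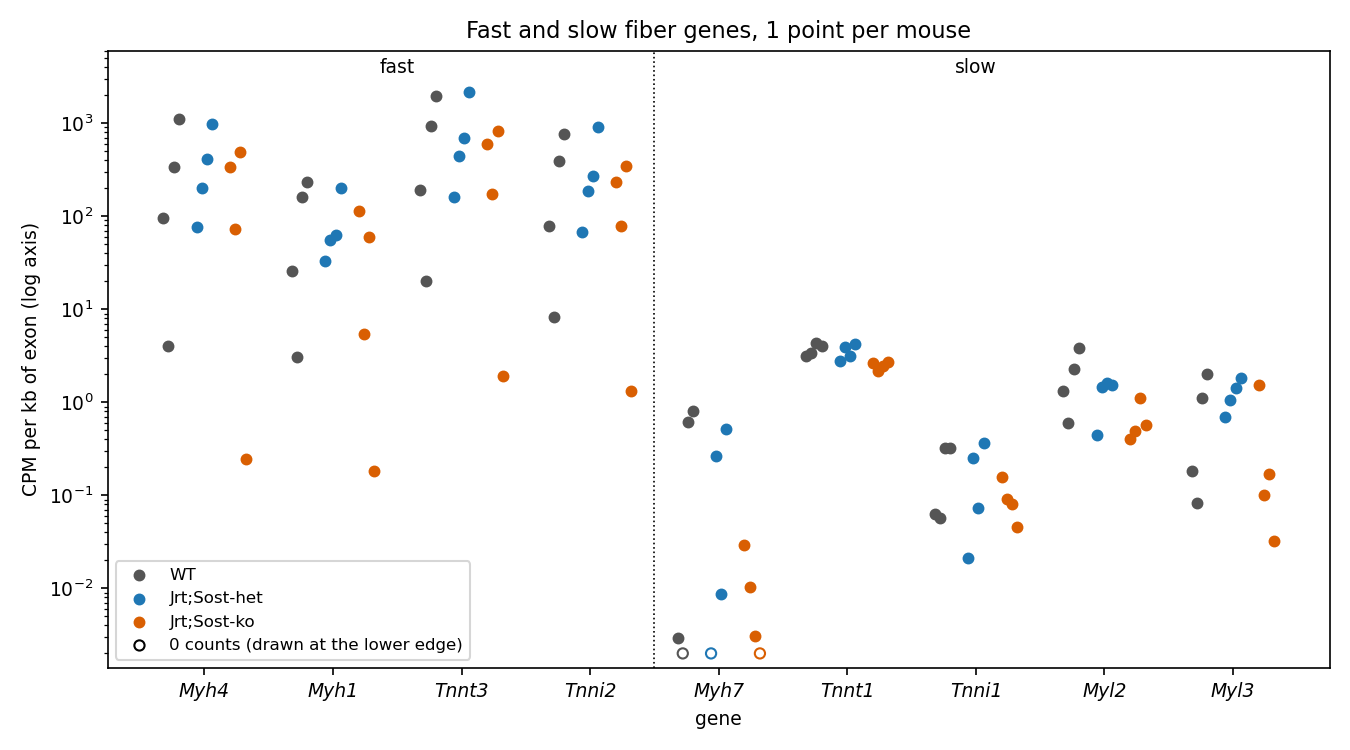
Level of the 4 fast and 5 slow genes in CPM per kb of exon on a log axis, 1 point per mouse, colored by group, with mice at 0 counts of *Myh7* as open circles at the lower edge. Fast genes spread over 695-fold (*Tnni2*) to 4569-fold (*Myh4*) ranges with all groups overlapping, and *Tnnt1* stays within a 1.98-fold range with the Jrt;Sost-ko mice lowest.

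Actin and tropomyosin form the thin filament. *Acta1*, the actin of adult skeletal muscle, was at 272, 26.8, 1361 and 3792 CPM in WT mice 1 to 4, at 277, 686, 1208 and 3095 CPM in Jrt;Sost-het mice 1 to 4, and at 1135, 216, 1334 and 1.89 CPM in Jrt;Sost-ko mice 1 to 4. It was first of the 43 genes by median CPM per kb (593). *Tpm3*, a tropomyosin gene of slow fibers whose other isoforms occur in most cells, was at 466, 516, 450.2 and 392 CPM in WT mice 1 to 4, at 415, 440.1, 467 and 421 CPM in Jrt;Sost-het mice 1 to 4, and at 469, 453, 405 and 449 CPM in Jrt;Sost-ko mice 1 to 4. It varied least of all 43, by 1.32-fold, and its highest mouse was WT 2 and its lowest WT 4, the reverse of *Acta1* in that group. *Tpm1* varied 9.15-fold, from 271 CPM in WT 2 to 2484 CPM in Jrt;Sost-het 4, and *Tpm2* 26.1-fold.

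The giant scaffold genes went with the fast genes. *Ttn*, which spans from Z-disc to M-line, ranged from 1.96 to 2138 CPM and *Neb*, the thin filament ruler, from 1.04 to 1186 CPM. Of the myosin-binding proteins, *Mybpc1* (slow type) ranged from 0.391 to 782 CPM and *Mybpc2* (fast type) from 3.59 to 808 CPM, and by median level per kb *Mybpc2* (52.8) stood above *Mybpc1* (25.0). At the Z-disc, *Actn3*, the actinin of fast fibers, had a median of 104 CPM per kb against 8.06 for *Actn2*, and *Myoz1*, mainly of fast fibers, 39.2 against 0.636 for *Myoz2*, of slow fibers and heart. *Tcap*, *Ldb3*, *Xirp2* and *Des* each had over 100-fold ranges, with 123-fold for *Des*.

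Among the calcium genes, *Atp2a1*, the fast calcium pump of the sarcoplasmic reticulum, ranged from 2.22 to 4357 CPM and *Pvalb*, the calcium buffer of fast fibers, from 0.815 to 1736 CPM. *Ryr1*, the calcium release channel, ranged 109-fold and *Cacna1s*, its voltage sensor, 351-fold. *Sln*, a small inhibitor of the calcium pump, had 0 counts in 5 mice and at most 22 counts in any, in WT 4. *Casq2* varied 9.53-fold, from 0.718 CPM in WT 2 to 6.84 CPM in WT 4.

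Of the energy genes, *Ckm*, the muscle creatine kinase, was at 241, 18.1, 1252 and 2726 CPM in WT mice 1 to 4, at 230.1, 651, 1071 and 3093 CPM in Jrt;Sost-het mice 1 to 4, and at 983, 255, 1254 and 0.946 CPM in Jrt;Sost-ko mice 1 to 4. *Mb*, the oxygen store of oxidative fibers, was at 44.4, 2.22, 360.4 and 416 CPM in WT mice 1 to 4, at 59.96, 126, 123 and 429 CPM in Jrt;Sost-het mice 1 to 4, and at 162, 7.35, 88.5 and 0.587 CPM in Jrt;Sost-ko mice 1 to 4. Against *Acta1*, *Ckm* stayed between 500.0 and 1181 counts per 1000 counts of *Acta1*, while *Mb* spanned 34.0 to 310.3. *Pgam2* and *Ampd1*, of glycolysis and the purine nucleotide cycle, ranged 1081-fold and 1775-fold, and *Eno3* and *Pygm*, of glycolysis and glycogen breakdown, 52.9-fold and 88.1-fold.

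In all, 41 of the 43 genes had counts in every mouse, and their highest level over their lowest was 731-fold at the median, from 1.32-fold for *Tpm3* to 4569-fold for *Myh4*. The range was over 100-fold for 30 genes and under 10-fold for 6 (*Tpm3*, *Tnnt1*, *Tnnc1*, *Tpm1*, *Casq2* and *Myl2*). Among the 15168 genes with at least 10 counts in every mouse, the median range was 1.49-fold and 0.257% exceeded 100-fold. The 2 sets are unlike, because the 41 genes did not have to pass that filter. Some fell below 10 counts in a mouse, such as *Ampd1* with 3 and *Pgam2* with 8. Jrt;Sost-ko 4 was the lowest mouse for 32 of these 41 genes. Over all 43 genes the highest mouse was WT 4 for 25, Jrt;Sost-het 4 for 16, WT 3 for *Tnnt1* and WT 2 for *Tpm3*.

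Set against *Acta1* in the same library, several fast genes kept close proportions in 10 mice, and *Myh1* did not. In the 10 mice other than WT 2 and Jrt;Sost-ko 4, *Myh4* lay between 1509 and 2199 counts per 1000 counts of *Acta1*, a 1.46-fold range, *Tnnt3* between 814 and 1259 (1.55-fold), *Myl1* between 336 and 534 (1.59-fold) and *Tnni2* between 298 and 539 (1.81-fold). *Myh1* and *Myh2* varied more, by 4.81-fold and 7.01-fold, and the slow genes *Tnni1*, *Tnnt1*, *Myl2* and *Myl3* by 6.93-fold, 10.97-fold, 13.6-fold and 19.9-fold. In Jrt;Sost-ko 4, where *Acta1* had 58 counts, *Tnnt1* reached 3172 and *Myl2* 586 per 1000, against at most 25.6 and 9.43 in the 10 mice. Fast genes left their ranges there too, with *Myh4* at 776, *Tnnt3* at 1621, *Myl1* at 1069 and *Tnni2* at 1034. *Mylpf*, at 410 to 932 in the 10 mice, reached 5931. In WT 2, *Myh4* lay below its range at 894, and *Tnnt3*, *Myl1* and *Tnni2* lay within theirs (1179, 460 and 464).

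**Figure D4:**
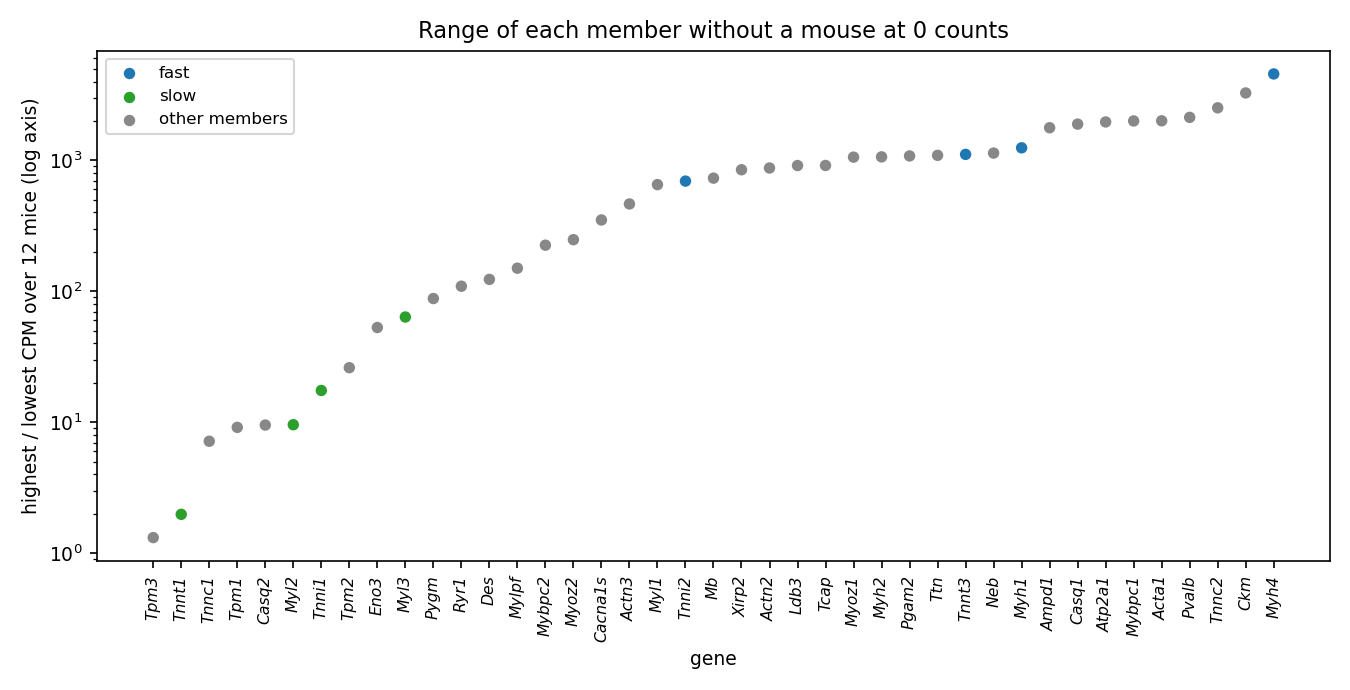
Highest over lowest CPM across the 12 mice (log axis) for the 41 genes without a mouse at 0 counts, ordered by size, with fast genes in blue, slow genes in green and the other genes in gray. The 4 fast genes lie between 695-fold for *Tnni2* and 4569-fold for *Myh4*, and *Tpm3* and *Tnnt1* lie at the left, at 1.32-fold and 1.98-fold.

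Jrt;Sost-ko was first compared with Jrt;Sost-het, the comparison of the loss of the remaining *Sost* allele within a colony. Other alleles linked to *Sost* on chromosome 11 cannot be told apart from that loss. *Myh4*, *Myh1*, *Myh2*, *Eno3*, *Tcap* and *Pgam2* lie on the same chromosome. Fitted levels of nearly all these genes were lower in Jrt;Sost-ko mice, but of the 40 tested the groups overlapped for all except *Tnnt1*, and no gene passed the adjusted test. Of the 40 genes with enough counts to test, edgeR's quasi-likelihood test called 0 at an adjusted p under 0.05, where 0.00597% of all 16739 genes tested were called, a single gene, *Sost*. *Myh7*, *Tnni1* and *Sln* were not tested for low counts. The median log2 fold change was -0.95, with 39 of 40 negative, against 0.00 over all genes and -0.92 over the 30 other muscle genes. The median SE was 1.15. Means of log2 CPM gave a median difference of -2.15 over the 43 genes, with 1 positive. Without Jrt;Sost-ko 4 it was -0.41, again with 1 positive.

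At an unadjusted p under 0.05 there were 2 of 40 genes, a share near the background of 5.02%. Both encode slow troponins, from which nothing is concluded on fiber types. *Tnnc1* had a log2 fold change of -1.21 ± 0.47 (SE, edgeR adjusted p = 0.901). *Tnnt1* had a log2 fold change of -0.50 ± 0.16 (SE, edgeR adjusted p = 0.901), and was the only one of the 40 whose groups did not overlap, where 3.2% of all genes tested did not. Its exact two-sided permutation p was 0.0286, the smallest that 4 against 4 mice can give. DESeq2 and limma-voom with quality weights each had 3 genes at an unadjusted p under 0.05, against 5.41% and 8.86% of all genes. Both called 0 of them, where they called 0.0897% and 0% of all genes. The fitted median depended on single mice, and was -0.07 without Jrt;Sost-het 4, -0.58 without Jrt;Sost-ko 4 and -1.52 without Jrt;Sost-ko 3.

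When the mean log2 CPM of the 30 other muscle genes entered the fit as a covariate, so that mice were compared at an equal level of muscle RNA, the median over the 40 genes became 0.02, with 22 positive, and the median SE fell to 0.30. Again 0 genes were called by edgeR (0.00597% of all), and 3 had an unadjusted p under 0.05, against a background of 5%. These were *Myh2*, with a log2 fold change of -0.92 ± 0.35, *Mb*, with -0.97 ± 0.37, and *Tnnt1*, with -0.46 ± 0.18 (SE, edgeR, adjusted p = 0.942 each). *Myh2* and *Mb* are known from oxidative fibers, but 3 of 40 genes is close to the background, so nothing is concluded on fiber types. DESeq2 with the covariate called 0 (0.0836% of all genes), with 4 at an unadjusted p under 0.05 (4.53% of all genes). The fast genes ranged from -0.61 to 0.16.

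Jrt;Sost-het was next compared with WT, the comparison of the collagen variant and 1 *Sost* allele, with the colony, against normal mice. The direction over the genes depended on how mice were averaged and on single mice. From fitted mean counts, to which mice with much muscle RNA contribute most, the median log2 fold change was -0.03 over 42 genes tested, 20 of them positive, against 0.00 over all genes and 0.05 over the other muscle genes. From means of log2 CPM, in which mice weigh equally, the median difference over the 43 genes was 0.88, with 38 positive. That direction rested on WT 2, without which the median difference was -0.30 with 4 positive. It was 1.40 without WT 3, 1.81 without WT 4, 1.44 without Jrt;Sost-het 1 and 0.30 without Jrt;Sost-het 4. edgeR called 0 of the 42 (0% of all 16775 genes tested), with 0 at an unadjusted p under 0.05 against a background of 2.14%. DESeq2 and limma-voom also had 0, against 2.4% and 4.59% of all genes. Groups overlapped for all 42, where 1.54% of all genes did not. The fitted median moved with the mice with most muscle RNA, to 1.07 without WT 4 and to -0.88 without Jrt;Sost-het 4, and limma-voom gave 0.78 with 37 of 42 positive.

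At an equal level of muscle RNA, 0 of the 42 genes were called (0% of all). The median was -0.05 with 17 positive, and 0.12 with 33 positive when the covariate came from summed counts. By edgeR, 4 genes had an unadjusted p under 0.05, against 3.56% of all genes. *Myl2* had a log2 fold change of -0.82 ± 0.27 and *Myl3* of 0.72 ± 0.29, so that these slow light chains had opposite signs. *Ldb3*, of the Z-disc, had 0.31 ± 0.13 and *Pgam2* 0.19 ± 0.07 (SE, edgeR, adjusted p = 0.999 each). DESeq2 with the covariate had 4 at an unadjusted p under 0.05 (3.08% of all genes) and called 0 (0.119% of all genes). The fast genes lay between -0.16 and 0.17, with SEs of 0.12 to 0.27.

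Jrt;Sost-ko was last compared with WT, with both alleles and the colony differing. All 41 genes tested had negative log2 fold changes, with a median of -0.93 against -0.88 over the other muscle genes, and of the 41 tested the groups again overlapped for all except *Tnnt1*. Means of log2 CPM gave a median difference of -1.18 over the 43 genes, with 1 positive, and that direction rested on Jrt;Sost-ko 4, without which it was 0.45 with 28 positive. Without WT 2, WT 3 or WT 4 this difference was -2.44, -0.69 or -0.30, and without Jrt;Sost-ko 1 or Jrt;Sost-ko 3 it was -1.97 or -1.996. edgeR called 0 of the 41, where 0.00583% of all 17155 genes were called, and 2 had an unadjusted p under 0.05, against 3.89%. *Tnnt1* had a log2 fold change of -0.57 ± 0.14 (SE, edgeR adjusted p = 0.9996) and *Myl2* of -1.64 ± 0.57 (SE, edgeR adjusted p = 0.9996). *Tnnt1* was again the only gene whose groups did not overlap (2.4% of all genes did not), with the smallest exact permutation p of 0.0286, and *Myl2* had an exact permutation p of 0.0571. DESeq2 had 3 and limma-voom 2 at an unadjusted p under 0.05, against 4.62% and 8.98% of all genes. Both called 0 of them, where they called 0.0817% and 0.0117% of all genes. The fitted median was 0.10 without WT 4, with 26 genes positive, -1.50 without Jrt;Sost-ko 3, -0.53 without Jrt;Sost-ko 4, and -0.92 without WT 2 and Jrt;Sost-ko 4 together, where 0 were called too.

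At an equal level of muscle RNA the median was -0.10, with 12 of 41 genes positive. Its sign turned with how the covariate was built, to 0.14 with 25 positive when the covariate came from summed counts of the 30 genes, and DESeq2 gave -0.26 with 9 positive. With the mean over the 30 genes as covariate, 7 of 41 genes had an unadjusted p under 0.05, against 10.8% of all genes tested, with 0 called by edgeR (0.0117% of all). All 7 had negative log2 fold changes: -1.06 ± 0.22 for *Myh2*, -1.21 ± 0.42 for *Myl2*, -0.999 ± 0.38 for *Mb*, -0.93 ± 0.36 for *Mybpc1*, -0.95 ± 0.34 for *Myoz2*, -0.96 ± 0.42 for *Myh1* and -0.55 ± 0.14 for *Tnnt1* (SE). Their smallest adjusted p in edgeR was 0.312, for *Myh2*. DESeq2 with the covariate had 6 at an unadjusted p under 0.05 (10.8% of all genes) and called 1, *Tnnt1*, at -0.56 ± 0.16 (SE, adjusted p = 0.0330). That fit called 245 of 17155 genes (1.43%), where edgeR called 2. *Myh4*, *Tnnt3* and *Tnni2* were not among the 7, and the fast genes ranged from -0.96, for *Myh1*, to 0.03, for *Myh4*. The 7 genes stayed negative with the covariate from summed counts.

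Beside these values, the tendon list had 5 of 5 genes positive in Jrt;Sost-ko against WT (median log2 fold change 0.29) and the osteoblast list 7 of 7 (0.62), with 0 called, and the smooth muscle list 4 of 8. At an equal level of muscle RNA, 3 of the 5 tendon genes and 6 of the 7 osteoblast genes had an unadjusted p under 0.05 in that comparison, all positive and 0 called by edgeR, against 10.8% of all genes. So did 6 of 7 osteocyte genes, 5 of them higher and *Sost* lower and called. Of the epidermal genes, 2 were tested (*Krt10* and *Lor*), and both had an unadjusted p under 0.05 and were lower in that fit, with a median of -3.44 (-5.27 without the covariate). The genes of the neuromuscular junction (6 genes, *Chrne* and *Musk* among them), which muscle fibers express under the motor nerve, had medians of -0.44, -0.17 and -0.49 in the 3 comparisons in the order given, and of 0.21, -0.38 and 0.11 at an equal level of muscle RNA, with 0 called in either fit. At an equal level, *Rapsn* (-0.74 ± 0.21) and *Dok7* (0.80 ± 0.30) had an unadjusted p under 0.05 in Jrt;Sost-ko against WT (SE, adjusted p = 0.356 and 0.413 by edgeR). Of the heart genes, 0 were called, with medians of -0.39, 0.10 and -0.12. The part of these cell types in the values of *Tnnt1*, *Myl2* and *Myl3* was not tested.

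**Figure D5:**
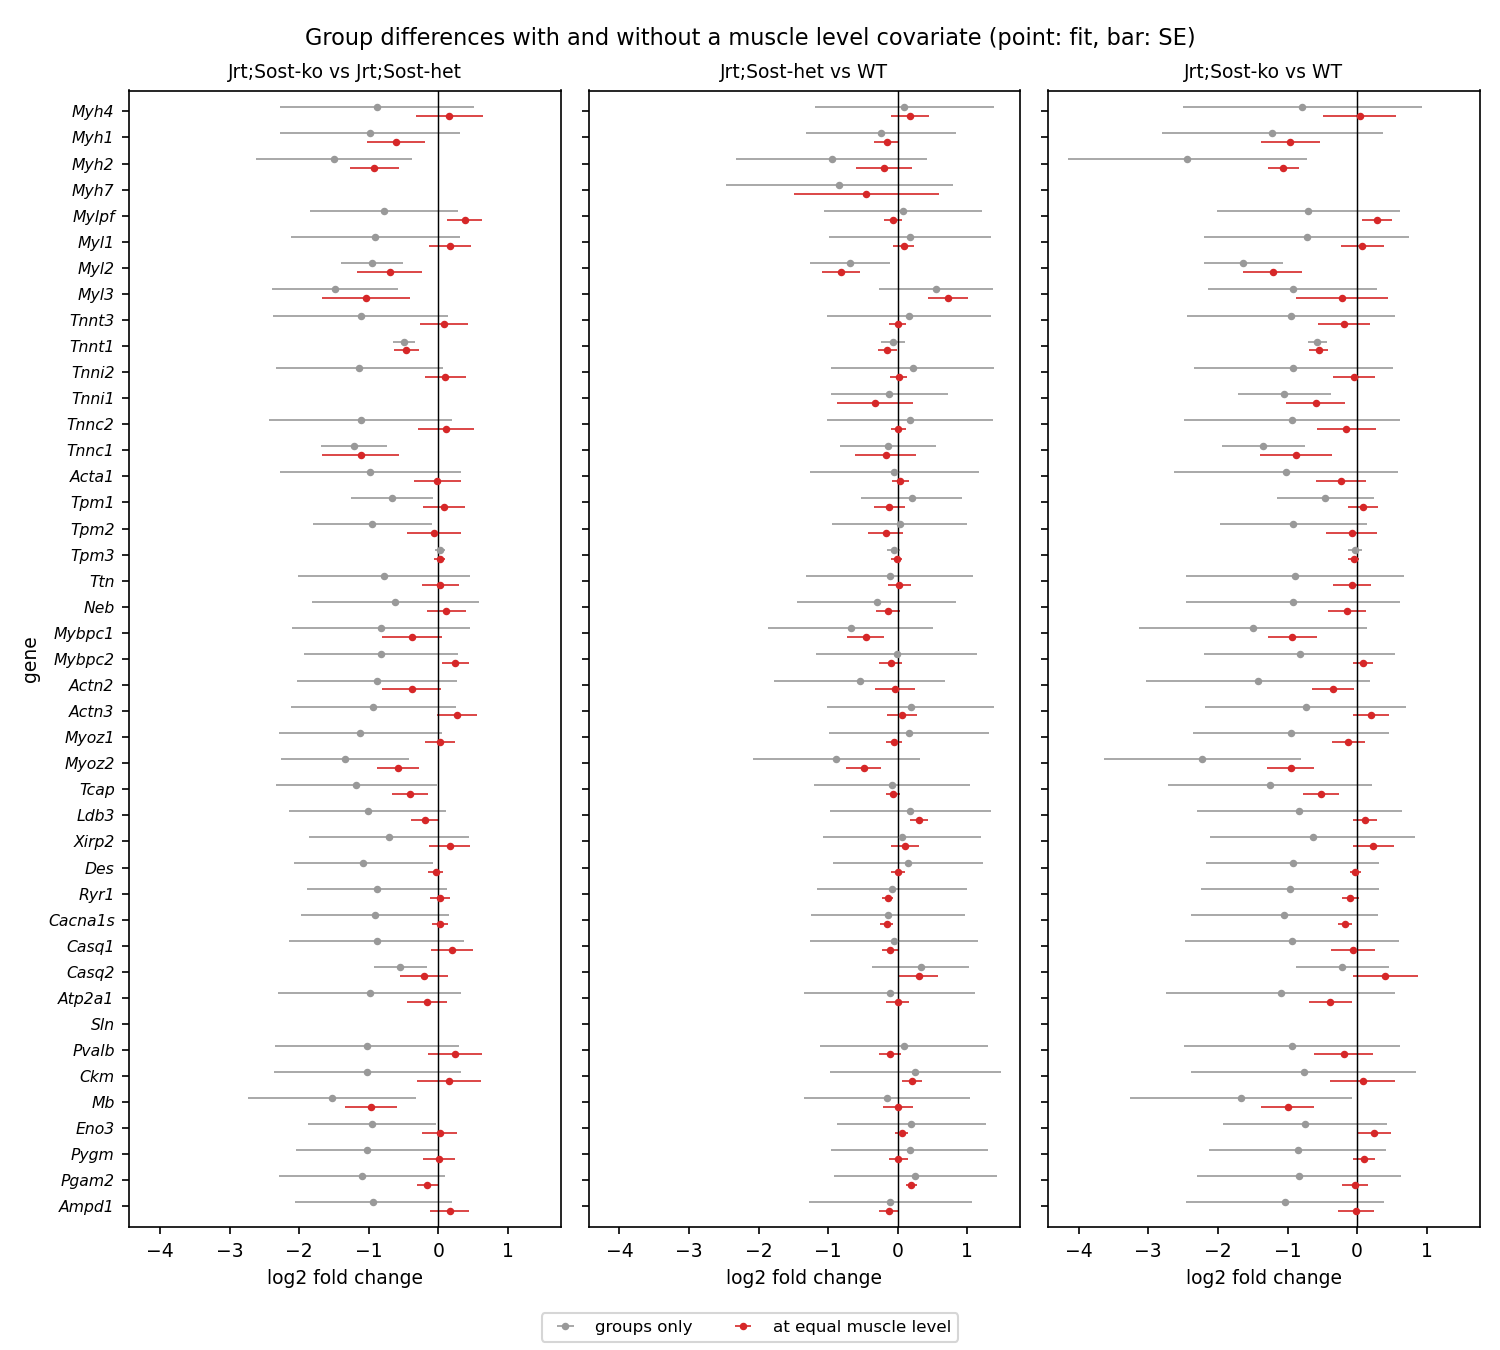
Log2 fold change (point) and SE (bar) of each gene tested, in 3 comparisons, fitted on the groups only (gray) and at equal muscle level (red). Gray bars are wide and shifted to the left in both comparisons of Jrt;Sost-ko, and red points gather near 0, apart from genes such as *Myh2*, *Mb*, *Myl2* and *Tnnt1*.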

How the data were processed

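The authors aligned paired-end reads of poly(A) RNA to GRCm38 with STAR and deposited raw counts per gene, without normalization. The submitters' processing notes also name bcl2fastq 2.20, Cufflinks, Cuffdiff and DESeq, and the annotation release and strand setting of the counting are not given in the sources used here. The deposited count matrix equalled the 12 deposited files of single mice, whose values (unit other) also gave reads on no gene (9.54% to 11.2%) and ambiguous reads (0.602% to 0.674%). Alignments to several places (7427715 to 15268509 per mouse) were listed apart and not counted. The authors' comparison tables hold their fold changes and p-values, with normalized values, and were not used. The 43 genes and all lists were chosen with earlier results of these data known. All 43 genes are named, the fast and slow sets among them. The lists of other genes are named in part or not at all. Values in every mouse are given for the fast and slow genes, *Acta1*, *Ckm*, *Myh2*, *Mylpf* and *Myl1*. They are also given for *Tpm3* and *Mb*, which were added after their values were seen.

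Every comparison used the 8 mice of its groups and all genes in R 4.3.3 with edgeR 4.0.16 (filterByExpr, TMM, glmQLFit, glmQLFTest; threshold 0.05 on Benjamini–Hochberg adjusted p), with and without the mean log2 CPM (prior count 2) of 30 other muscle genes. DESeq2 1.42.0, limma 3.58.1, other scalings and filters, a joint fit, robust estimation and leaving out each mouse were alternatives. Leaving out WT 2 and Jrt;Sost-ko 4 together was added after the data were seen. The functions were tested on simulated data. Exon lengths and positions come from GENCODE M21 (46488 of 47069 identifiers, 98.8%).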

Additional observations from a re-analysis of the deposited data

Results flagged for a closer look

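In groups of 4 mice, a mouse stands far from the others where its gap to the nearest, divided by the range of the group, exceeds Dixon's critical value for 95% confidence. Of 144 groups of values, 3 passed, where chance gives 7.2. For *Myl2* in Jrt;Sost-het mice the value was 0.916, with Jrt;Sost-het 1 lowest at 23 counts against 72 to 83 in the others. For *Sln* in Jrt;Sost-ko mice it was 1, with 8 counts in Jrt;Sost-ko 3 and 0 in the others. Because the others tie at 0, any count in Jrt;Sost-ko 3 would give a value of 1, so nothing is concluded from it. For the *Myh2* share of myosin heavy chain counts in Jrt;Sost-ko mice it was 0.918, with 17.3% in Jrt;Sost-ko 4 (95% Wilson interval 11.1% to 26.04%, from 98 counts) against 1.07% to 2.40% in the others.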

How the results depend on the processing

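Of 582 alternative values, 580 kept their direction or lay within the spread between mice, on the same side of the threshold. The exceptions both came from DESeq2 with the muscle covariate in Jrt;Sost-ko against WT, which called 1 gene in place of 0, *Tnnt1*, at a log2 fold change of -0.56 (adjusted p = 0.0330, in a fit that called 245 of all 17155 genes against 2 in edgeR, where the edgeR alternatives for it gave 0.212 to 0.742 with a mouse left out); the cause was not tested. Calls of the 43 genes were 0 in each fit without 1 mouse. Those fits called few genes of any kind. The most was 12 of 17319, in Jrt;Sost-ko against WT at an equal level of muscle RNA without WT 4. No paired analysis was possible because the labels give mice no shared numbers across groups. Medians and ratios that changed sign were among the 580 where they moved by less than the larger SD of the groups. The 580 therefore do not show that directions were steady. Fitted medians over the 40 to 42 genes tested, without 1 mouse, ranged from -1.52 to -0.07 (Jrt;Sost-ko against Jrt;Sost-het), from -0.88 to 1.07 (Jrt;Sost-het against WT) and from -1.50 to 0.10 (Jrt;Sost-ko against WT). Medians of the differences of mean log2 CPM, left out of the count above and chosen after seeing the data, ranged from -3.02 to -0.41, from -0.30 to 1.81 and from -2.44 to 0.45. At an equal level of muscle RNA, medians without 1 mouse ranged from -0.13 to 0.03, from -0.08 to 0.03 and from -0.23 to -0.01. The log2 ratio of fast to slow genes moved from -2.54 to 0.36, from 0.02 to 1.82 and from -1.57 to 1.49, and from myosin heavy chains alone it was -0.22, 1.27 and 1.05. With 45 counts of *Myh4* in Jrt;Sost-ko 4 and at most 248 of *Myh7* in any mouse, few counts of these genes limit what can be said of fiber types in the low libraries. Their total counts, 28737276 in WT 2 and 30468127 in Jrt;Sost-ko 4, were above the 24366061 of Jrt;Sost-het 4. The smallest two-sided exact p for 4 mice against 4 is 0.0286.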

Other observations

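*Actc1*, the actin of embryonic muscle and heart and no member of the 43 genes, was singled out after its values were seen. It had 75, 2, 360 and 3661 counts in WT mice 1 to 4, 404, 825, 2104 and 4796 counts in Jrt;Sost-het mice 1 to 4, and 2262, 778, 5164 and 4 counts in Jrt;Sost-ko mice 1 to 4. The counts overlapped between all 3 groups. Per 1000 counts of *Acta1* these were 2.55 to 26.7 in WT, 40.7 to 65.5 in Jrt;Sost-het and 69.0 to 107 in Jrt;Sost-ko mice. The lowest values of WT (WT 2) and of Jrt;Sost-ko (Jrt;Sost-ko 4) rest on 2 and 4 counts. How many of all genes separate the groups on such a ratio was not determined, so nothing is concluded from these ranges. At an equal level of muscle RNA its log2 fold change was 2.31 ± 0.47 for Jrt;Sost-het against WT, 3.22 ± 0.58 for Jrt;Sost-ko against WT and 0.76 ± 0.32 between the Jrt groups, Jrt;Sost-ko against the other (SE, edgeR), with adjusted p of 0.999, 0.276 and 0.942, so that it was called in none. Without the covariate these were 1.52 ± 1.47, 1.11 ± 1.70 and -0.41 ± 1.201 in the same order, so that the sign between the Jrt groups turned. In the myogenic list to which it belongs, 6 of 6 genes tested were positive in Jrt;Sost-ko against WT at an equal level of muscle RNA, with a median of 0.84, and without the covariate the median was -0.21. With the covariate, the embryonic and neonatal myosins *Myh3* and *Myh8* had log2 fold changes of 0.08 ± 0.60 and 0.19 ± 0.29 in Jrt;Sost-ko against WT, *Myf6* had 0.18 ± 0.32, *Myog* 1.90 ± 0.85 and *Myod1* 1.48 ± 0.56 (SE, edgeR). With *Actc1*, 2 of the 6 list genes tested there had an unadjusted p under 0.05 (*Actc1* and *Myod1*), against 10.8% of all genes, and 0 were called.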
